A study of Mus musculus with 3 samples.

Results

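The respiratory chain genes described here are 46 of the 27998 genes counted in this series, 33 encoded in the nucleus and 13 in the mitochondrial genome. They were taken by symbol, as subunits of complexes I to V of the inner mitochondrial membrane, and all 46 were found in the deposited count tables. By complex the nuclear members are 10 subunits of complex I, 2 of complex II, 4 of complex III, 11 of complex IV and 6 of complex V, and the mitochondrial members are 7, 0, 1, 3 and 2. The counts are single-cell 3′ RNA counts from mouse fetal brains taken at E18.5, after a Percoll gradient and selection with CD11b magnetic beads. There were 3 libraries, 1 per group: genotype Ncr1-cre with saline (Ncr1-cre+Saline), genotype Ncr1-cre with polyIC (Ncr1-cre+polyIC), and genotype Ncr1-cre;gzmbf/f with polyIC (Gzmb-cko+polyIC). PolyIC, made of paired inosine and cytidine strands, stands in for viral RNA in such models of infection during pregnancy. All 3 groups carry Ncr1-cre, whose recombinase is made in natural killer cells and some innate lymphoid cells. The floxed gene codes for granzyme B, a protease of their cytotoxic granules. Whether the genotypes are those of the dams, the fetuses or both, the dose and day of injection and the number of fetuses pooled are unknown from the sources used here. There is no Ncr1-cre;gzmbf/f library with saline. With 1 library a group, no difference between groups has a replicate check, and intervals on such differences cover counting error only. Values are given throughout in the order Ncr1-cre+Saline, Ncr1-cre+polyIC, Gzmb-cko+polyIC.

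The respiratory chain moves electrons from NADH, through complex I, and from succinate, through complex II, to ubiquinone, then by complex III and cytochrome c to complex IV, which reduces oxygen. Complexes I, III and IV pump protons across the inner membrane, and complex V, the ATP synthase, uses that gradient. Complex II is the one complex with no subunit encoded by mitochondrial DNA, and it is also an enzyme of the tricarboxylic acid cycle. The nuclear subunits are transcribed separately, translated in the cytosol and imported. The mitochondrial subunits are cut from long transcripts of the mitochondrial genome, so their levels depend on another RNA polymerase and on RNA decay inside the organelle. The choroid plexus epithelium, which secretes the cerebrospinal fluid, is known for its many mitochondria, and microglia are the resident macrophages of the brain.

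The libraries held 13820, 14887 and 15306 barcodes with 89295907, 85442198 and 105574073 unique molecular identifiers (UMIs). A cell was kept if it had 500 genes or more and a mitochondrial share of UMIs up to 10%, which left 12148, 10759 and 13447 cells. That limit is set on the 13 mitochondrial members themselves and removed 0.508, 8.92 and 4.16% of the cells with enough genes, so mitochondrial results are also given without it. The saline library held no barcode under 3133 UMIs, whereas the others reached down to 500. Hemoglobin genes took 18.7, 20.4 and 5.57% of all UMIs. Of 43816 distinct barcode sequences, 195 occurred in 2 libraries and 1 in all 3. Gzmb gave 61, 127 and 2 UMIs in 4, 6 and 1 barcodes, so the targeted gene was nearly absent from the Gzmb-cko+polyIC library but was rare in the others as well.

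Classes were set by marker genes: microglia by P2ry12 without Mrc1 (5064, 4272 and 5121 cells), border macrophages by Mrc1 and Pf4 (1055, 663 and 1830), monocytes by Ccr2 and Ly6c2 (480, 403 and 343), choroid plexus by Ttr at 5% or more of UMIs (356, 822 and 1014) and neurons by Stmn2 and Dcx (113, 314 and 115). Cells that met 2 or more of these gates were left out. In every library the markers fixed for a class stood at 20 CPM or more (UMIs of the class scaled to a total of 1000000) for 10 of 10 microglial, 9 of 9 border macrophage, 9 of 9 monocyte, 7 of 9 choroid plexus and 9 of 9 neuronal genes. Gate genes are among these markers, such as Mrc1 for border macrophages and Ttr for choroid plexus, and they are high there by construction. The counts are thus not independent support for the classes. Reaching that level does not by itself separate the classes either, since all 10 microglial markers also reached it in border macrophages in each library, in monocytes with saline and in neurons in 2 libraries. Their summed level was 9988, 12889 and 12509 CPM in microglia and 7181, 7964 and 7822 in border macrophages, but 2329, 1006 and 1848 in monocytes. Itgam, which codes for CD11b, stood at 280.3, 343 and 291 CPM in microglia and at 31.5, 9.50 and 15.9 in choroid plexus. It was lower in choroid plexus in each library. Ttr, the main secreted protein of that epithelium, took 0.280, 0.179 and 0.0841% of the UMIs of microglia.

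The nuclear members are short: their transcripts have a median length of 659 bases against 2221 for all genes, and 25 of 33 are under 1000 bases. They are spread over the chromosomes, with Ndufa1 (membrane arm of complex I) and Cox7b (complex IV) on X, Cox8a on 19 at 7215153 to 7217616 and Sdhd on 9 at 50596357 to 50603812 (GRCm38). The 13 mitochondrial members lie on 1 circular molecule, 12 on one strand and mt-Nd6 on the other. mt-Atp8 and mt-Atp6 share 43 bases and mt-Nd4l and mt-Nd4 share 7, so reads in the overlaps cannot be assigned. For 19 members, 12 nuclear and 7 mitochondrial, the annotation holds a near copy of the last 300 bases, among them Atp5l with 12 copies, Uqcrb with 3 and Atp5h with 2, and reads could be split between such copies. Ndufb8 and Cox4i1 each overlap a predicted gene on the same strand. The levels of these genes are uncertain to that extent, while Cox8a, Uqcr10, Ndufa2, Sdhd and Ndufs1 had no such copy.

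RefSeq promoters (GRCm38.p6, from 250 bases before to 50 after the start) were found for 25 of the 33 nuclear members, in 26 windows. They were searched on both strands for 3 motifs of factors known to bind promoters of these genes: NRF1 (GCGCANGCG), the ETS family, which includes GABPA (CCGGAAG), and YY1 (ANATGGCGG). At least 1 motif was found in 13 of the 26 windows and in 15.1% of all 32851 promoters. By motif the shares were 23.1 against 6.25% for NRF1, 34.6 against 8.86% for ETS and 11.5 against 1.86% for YY1. The other subunits of the chain had a motif in 52.2% of windows and cytosolic ribosomal protein genes in 48.4%, so such motifs are shared with another large group of short housekeeping genes. The windows of 4 members on which the results below turn are printed with the motif matches in capitals. Cox8a, an accessory subunit of complex IV, and Atp5h, subunit d of the peripheral stalk of the ATP synthase, were the 2 highest in choroid plexus against microglia. Sdhd, the membrane anchor of complex II, and Uqcr10, a small accessory subunit of complex III, moved in opposite directions between the microglia of the libraries. All 4 are read on the minus strand.
Cox8a, chr19:7217567-7217866, ETS in 2 places: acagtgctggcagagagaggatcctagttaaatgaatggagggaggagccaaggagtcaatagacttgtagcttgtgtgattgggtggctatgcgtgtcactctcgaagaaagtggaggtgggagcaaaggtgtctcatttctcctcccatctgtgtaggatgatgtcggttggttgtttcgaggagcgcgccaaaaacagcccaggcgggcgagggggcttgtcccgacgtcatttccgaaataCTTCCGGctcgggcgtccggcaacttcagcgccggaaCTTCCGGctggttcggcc
Atp5h, chr11:115419870-115420169, NRF1 and ETS: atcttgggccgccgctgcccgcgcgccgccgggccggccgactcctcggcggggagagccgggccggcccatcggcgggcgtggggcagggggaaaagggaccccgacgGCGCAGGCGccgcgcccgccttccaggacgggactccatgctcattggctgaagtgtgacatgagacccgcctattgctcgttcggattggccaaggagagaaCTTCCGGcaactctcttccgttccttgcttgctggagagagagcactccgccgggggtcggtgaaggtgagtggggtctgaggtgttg
Sdhd, chr9:50603800-50604099, NRF1 and ETS: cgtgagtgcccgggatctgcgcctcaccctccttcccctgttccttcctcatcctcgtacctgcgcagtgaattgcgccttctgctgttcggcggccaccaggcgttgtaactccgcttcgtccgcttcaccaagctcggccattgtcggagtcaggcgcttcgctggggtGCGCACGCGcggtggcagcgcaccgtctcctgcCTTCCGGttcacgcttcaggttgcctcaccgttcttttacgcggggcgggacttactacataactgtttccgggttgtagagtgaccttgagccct
Uqcr10, chr11:4704295-4704594, no match: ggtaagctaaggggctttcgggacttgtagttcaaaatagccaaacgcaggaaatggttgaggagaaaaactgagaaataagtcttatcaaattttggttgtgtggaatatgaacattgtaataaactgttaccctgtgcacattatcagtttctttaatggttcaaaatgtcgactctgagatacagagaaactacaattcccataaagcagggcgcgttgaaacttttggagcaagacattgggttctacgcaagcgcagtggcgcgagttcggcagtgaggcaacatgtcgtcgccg
A match is a description of letters and no match says only that these letters are not in the window. Sdhd and Atp5h hold the same 2 kinds of match.

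Levels were first compared as shares of each class's UMIs. The 33 nuclear members took 1.16, 0.949 and 1.11% of UMIs in microglia, 1.24, 1.001 and 1.19% in border macrophages and 1.30, 1.23 and 1.28% in monocytes. Neurons were at 1.45, 1.35 and 1.30%, and choroid plexus stood apart at 3.04, 2.83 and 4.14%. The 13 mitochondrial members took 3.45, 4.34 and 4.36% in microglia, 3.66, 4.93 and 4.74% in border macrophages, 2.90, 3.32 and 3.78% in monocytes, 3.17, 4.26 and 5.43% in neurons and 2.93, 3.61 and 2.02% in choroid plexus. These are shares of summed UMIs. Over choroid plexus barcodes the median mitochondrial share was only 1.33, 1.55 and 1.18%, and 42.7, 37.1 and 43.7% of the barcodes were under 1%. By shares of all UMIs the order of the classes differed between the 2 genomes: choroid plexus was highest for nuclear members in each library, but not for mitochondrial members in any. Mitochondrial UMIs per nuclear UMI were 2.96, 4.58 and 3.92 in microglia and 0.964, 1.27 and 0.489 in choroid plexus. These are shares of RNA, and amounts per cell were not measured. Ttr alone took 27.3, 27.9 and 17.9% of the choroid plexus UMIs, and without Ttr the nuclear share was 4.17, 3.93 and 5.04% and the mitochondrial share 4.02, 5.002 and 2.46%. Those mitochondrial shares were above every other class in Ncr1-cre+Saline and Ncr1-cre+polyIC, but not in Gzmb-cko+polyIC. Border macrophages came next in the first 2 libraries, at 3.66 and 4.93% with their own Ttr (0.231 and 0.162% of UMIs) included. The mitochondrial order of the classes thus depends on Ttr in those libraries.

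**Figure D1:**
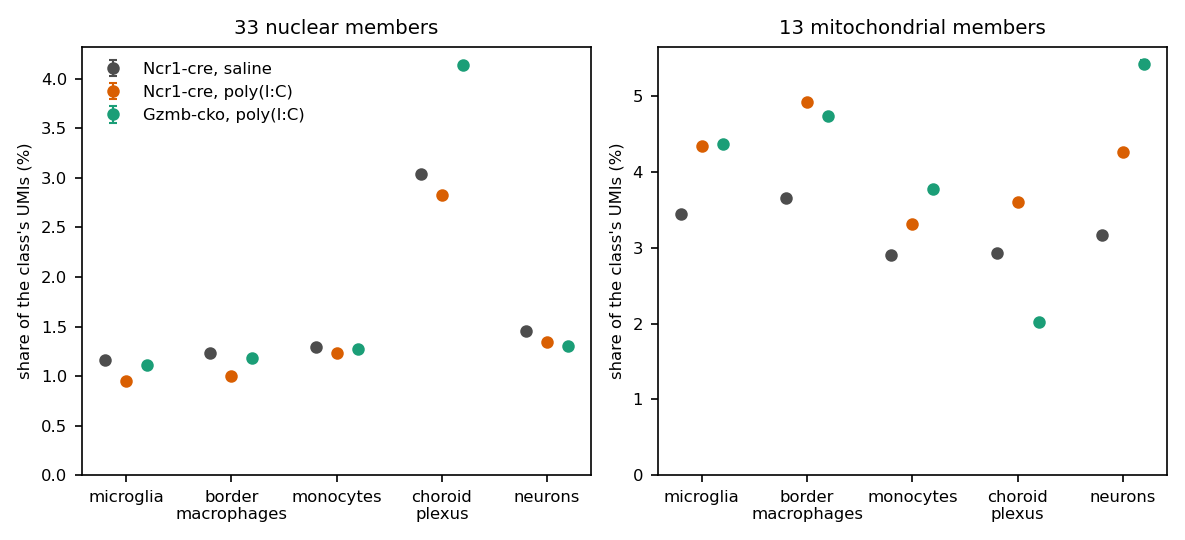
Share of a class's UMIs (%, vertical axes from 0) taken by the 33 nuclear (left) and 13 mitochondrial (right) respiratory chain genes in 5 cell classes (horizontal axis), 1 point per library with its counting interval (95%), which is mostly smaller than the point. Choroid plexus lies at 2.83 to 4.14% on the left, above the other classes, and at 2.02 to 3.61% on the right.

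The classes were then compared gene by gene with microglia within libraries (edgeR's quasi-likelihood test on UMIs summed per class and library, library as a block, Benjamini-Hochberg adjustment over 12752 genes, called at an adjusted p under 0.05). The 3 libraries of 3 different groups serve as the replicates, so a call asks for a difference that was alike in all of them, and its p measures only the spread between these libraries. Log2 fold changes of this test use TMM scaling, which sets aside the space taken by genes such as Ttr.

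All 33 nuclear members were called higher in choroid plexus than in microglia, in a comparison in which 38.0% of all genes tested were called higher and 35.2% lower. Their median log2 fold change was 2.05 against −0.00 over all genes. Complex IV and complex III members rose most, with medians of 2.27 and 2.19, followed by complex I (1.95), complex V (1.79) and complex II (1.16). Levels of Ndufs1 and Sdhd, in CPM, overlapped between the 2 classes across the libraries. CPM are not divided by transcript length in this 3′ assay, so levels are compared between samples and not between genes.

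Cox8a stood at 3228, 2933 and 4931 CPM in choroid plexus against 843, 626 and 787 in microglia. The lowest epithelial value was thus above 3 times the highest microglial one, and the difference was 2.76 (SE 0.16) on the log2 scale (edgeR adjusted p = 1.02e-09). Cox5a, a regulatory subunit, was the lowest of complex IV at 1.30 (SE 0.16), with 512, 578 and 820.4 against 340.1, 335 and 388 CPM. In complex V, Atp5h stood at 1514, 1576 and 2487 CPM against 413, 376 and 441, a log2 difference of 2.63 (SE 0.16, edgeR adjusted p = 1.79e-09), and Atp5l, subunit g of the membrane part, followed at 2.54. Atp5a1, the F1 alpha subunit, was the lowest there at 1.24.

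In complex III the highest was Uqcr10 at 2.48 and the lowest Uqcrq, another accessory subunit, at 2.11, so these 4 genes lay close together. In complex I the highest was Ndufv3, a matrix-arm accessory subunit, at 2.34. Ndufs1, the long core subunit that carries iron-sulfur clusters, was the lowest of all 33: it stood at 41.9, 55.9 and 47.2 CPM in choroid plexus and at 37.6, 43.9 and 40.3 in microglia. Its log2 difference after scaling was 0.71 (SE 0.11, edgeR adjusted p = 4.06e-05), and by CPM the classes overlapped. In complex II, Sdhb, the iron-sulfur subunit, was higher by 1.30 and Sdhd by 1.02, with 94.98, 168 and 147 CPM of Sdhd against 66.5, 105 and 107.

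**Figure D2:**
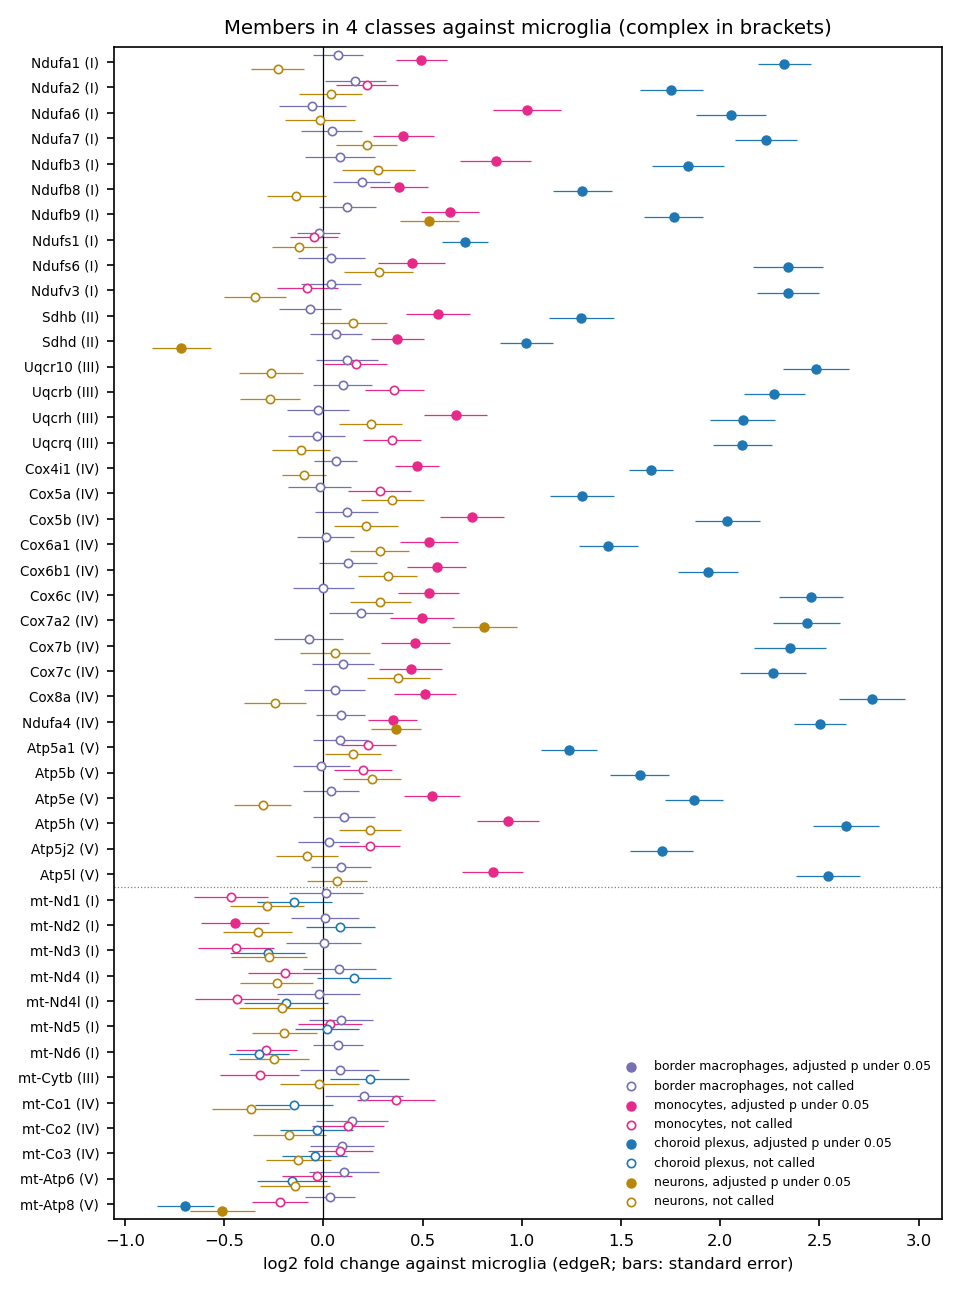
Log2 fold change against microglia (horizontal axis; bars are standard errors) of each member (vertical axis, complex in brackets) in border macrophages, monocytes, choroid plexus and neurons, from 3 libraries. Filled points have an edgeR adjusted p under 0.05. Above the dotted line, the 33 nuclear members in choroid plexus lie at 0.71 to 2.76, and below it the 13 mitochondrial members lie at −0.70 to 0.23 in choroid plexus, −0.47 to 0.37 in monocytes and −0.51 to −0.02 in neurons, with mt-Atp8 (choroid plexus and neurons) and mt-Nd2 (monocytes) filled.

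The mitochondrial members did not follow. None of the 13 was called higher in choroid plexus and 1 was called lower: mt-Atp8, a small subunit of the ATP synthase, at 26.5, 25.1 and 12.3 CPM against 59.8, 48.6 and 34.4 (log2 −0.70, SE 0.14, edgeR adjusted p = 0.000443). The subunits of complex I were at −0.33 (mt-Nd6), −0.28 (mt-Nd3), −0.19 (mt-Nd4l), −0.15 (mt-Nd1), 0.02 (mt-Nd5), 0.09 (mt-Nd2) and 0.15 (mt-Nd4). Those of complex IV were at −0.15 (mt-Co1), −0.03 (mt-Co2) and −0.04 (mt-Co3), and mt-Atp6 was at −0.16. The highest, mt-Cytb (cytochrome b of complex III), was at 0.23 (SE 0.20) and was not called. The median over the 13 was −0.15, but it was 0.21 with no limit on the mitochondrial share, so its sign depends on that limit. With library totals in place of TMM scaling, 33 of 33 nuclear members were still called higher, with a median of 1.58. In that setting 10 mitochondrial members were called lower, with a median of −0.61, but 48.3% of all genes were also called lower and 28.9% higher. The median of the nuclear members is to be read beside that of other genes of their length, which in choroid plexus against microglia was 0.29 under 500 bases, 1.28 from 500 to 700, 1.08 from 700 to 1000, 0.44 from 1000 to 2000 and −0.18 above.

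The rest of the pathway in choroid plexus followed in part. Of 48 other subunits tested, 46 were called higher and none lower, with a median of 1.86. Usmg5, a small subunit of the ATP synthase, was at 3.44, and Ndufa9, an accessory subunit of complex I, was the lowest called at 0.46. Cox6b2, an isoform of Cox6b1 known from testis, stood at 283, 173 and 227 CPM against 15.2, 7.96 and 5.96, a log2 difference of 5.10 (SE 0.22, edgeR adjusted p = 4.46e-11). Cox6a2, the muscle-type isoform of Cox6a1, was below 5 CPM in both classes and was not called. Assembly factors were called higher for 29 of 42 and lower for 6, from Ndufaf6 (complex I assembly) at 2.87 to Sco1 (copper delivery to complex IV) at −1.21. Of the tricarboxylic acid cycle 12 of 17 were higher and none lower, led by Suclg1, a subunit of succinyl-CoA ligase, at 2.59, and Suclg2, another subunit of such a ligase, was at 0.01. Of the redox enzymes of mitochondria 7 of 10 were higher and 1 lower: Sod2, the mitochondrial superoxide dismutase, was at 2.40 and Txnrd2, a thioredoxin reductase, at −0.59.

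Glycolysis genes were called higher for 15 of 17 and lower for 2, with Pfkp, a phosphofructokinase, at 4.76 and Hk2, a hexokinase, at −2.94. Mitochondrial ribosomal proteins were called higher for 64 of 76 and lower for 1 (median 0.94), and cytosolic ribosomal proteins for 21 of 85 and lower for 14 (median 0.07). Factors that express mitochondrial DNA were called higher for 9 of 24 and lower for 8 (median 0.05). Those counts are close to the shares over all genes, 38.0% higher and 35.2% lower, so they do not set this list apart. Its values ran from Grsf1, an RNA-binding protein of mitochondria, at 1.36 to Fastkd5, which acts in mitochondrial RNA processing, at −1.38. Tfam, which packages and transcribes mitochondrial DNA, was at 0.98. Of 9 regulators of mitochondrial biogenesis tested, 1 was higher and 4 lower. The one that rose was Ppargc1a, the coactivator PGC-1α, at 22.2, 19.4 and 11.1 CPM against 0.307, 0.930 and 0.264, which in microglia are 9, 23 and 9 UMIs (log2 5.64, SE 0.37, edgeR adjusted p = 1.36e-08). Its relative Pprc1 was the lowest at −1.74, and Nrf1, the factor whose motif is in 23.1% of member promoters, was lower by CPM in every library (7.17, 11.1 and 6.31 against 27.6, 32.3 and 30.4; log2 −1.39). Gabpa was at −0.08 (SE 0.14, edgeR adjusted p = 0.607).

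A large part of the choroid plexus barcodes held almost none of Malat1, a long RNA that stays in the nucleus. The median Malat1 share was 0.0437, 0.0085 and 0% of a barcode's UMIs, and 136, 119 and 98 barcodes (38.2, 14.5 and 9.66%) reached 0.1%. In microglia 97.3, 85.8 and 92.5% of cells did. The 2 kinds of choroid plexus barcode differed in the members. Nuclear members took 2.51, 1.99 and 2.82% of UMIs in barcodes with Malat1 and 3.78, 3.45 and 4.31% in those without, so they were lower with Malat1 in each library. Mitochondrial members took 4.25, 6.23 and 3.06% with Malat1 and 1.06, 1.69 and 1.89% without, the reverse order in each library. Median UMIs per barcode were 8122, 7812 and 2250.5 with Malat1 and 4392, 2840.0 and 2764 without.

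**Figure D3:**
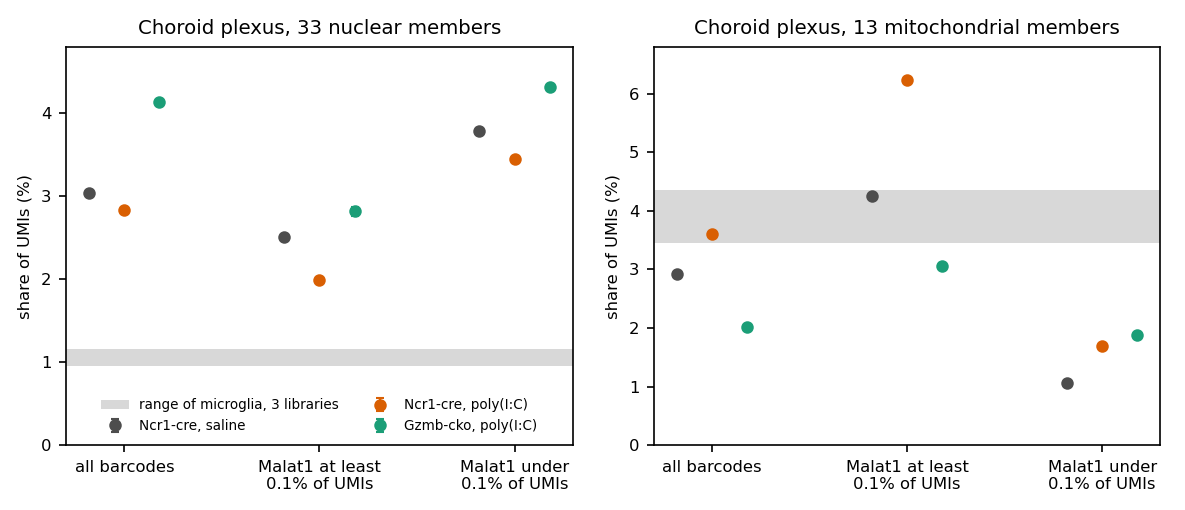
Share of UMIs (%, vertical axes from 0) of the nuclear (left) and mitochondrial (right) members in choroid plexus barcodes, all together and split at Malat1 of 0.1% of UMIs (horizontal axis), 1 point per library with its counting interval (95%). The grey band is the range of the same share over the microglia of the 3 libraries. The nuclear share lies above the band on both sides of the split, whereas the mitochondrial share without Malat1 (1.06 to 1.89%) lies below it.

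With Malat1 of at least 0.1% required in every class, a restriction chosen after these values were seen, all 33 nuclear members were again called higher in choroid plexus, with a median of 1.28 in place of 2.05. In that setting 30.8% of all genes were called higher and 29.5% lower, and the members were not compared with other genes of their length. No mitochondrial member was called, and their median was 0.31 in place of −0.15. The nuclear difference was thus present, at a smaller size, among barcodes with Malat1 at 0.1% of UMIs or more. In Gzmb-cko+polyIC the split separated the choroid plexus barcodes little. Median shares per barcode there were 3.78% (nuclear) and 1.69% (mitochondrial) with Malat1, against 4.34 and 1.12% without. The values between libraries with Malat1 required stand beside those differences.

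Between the choroid plexus of the libraries, nuclear members were higher and mitochondrial members lower in Gzmb-cko+polyIC than in Ncr1-cre+polyIC. Nuclear members were higher for 30 of 33, with 26 past a threshold of 25% (the higher level at least 25% above the lower) and a median log2 ratio of 0.57, in a comparison in which 33.6% of all genes past the floor of 20 CPM were past 25% higher and 25.0% lower, with a median of 0.13. Cox7b, an accessory subunit of complex IV, stood at 909.6, 802 and 1360 CPM, 1.70-fold higher (1.62 to 1.77, counting error only), and Cox8a was 1.68-fold higher (1.64 to 1.72). Uqcr10, at 955, 763 and 1256, was 1.65-fold higher (1.57 to 1.72). The exceptions were Ndufs1, Sdhd and Ndufa1: Ndufs1 was at −0.24 with an interval that includes no change (a ratio of 0.845, 0.687 to 1.04), and Sdhd, at 94.98, 168 and 147, at −0.20.

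All 12 mitochondrial members past the floor were lower in Gzmb-cko+polyIC, each past 25%, with a median of −0.92. mt-Nd4l, a small core subunit of complex I, was 2.29-fold lower (2.00 to 2.62), at 159, 201 and 88.1 CPM, and mt-Atp6, the proton channel subunit of the ATP synthase, was 1.57-fold lower (1.54 to 1.60), at 4489, 5807 and 3704. Both genomes also moved against the saline library, with medians of 0.47 and −0.64 for Gzmb-cko+polyIC over Ncr1-cre+Saline. The medians for Gzmb-cko+polyIC over Ncr1-cre+polyIC were 0.57 and −1.11 with Malat1 required, 0.38 and −0.30 without cells positive for 2 or more of 12 cell cycle genes, 0.30 and −0.28 as means over barcodes, and 0.69 and −1.52 with no mitochondrial limit. The direction was alike in these 4 settings. Other genes of the same length moved with the nuclear members here, with medians of 0.42 under 500 bases, 0.49 from 500 to 700 and 0.45 from 700 to 1000. The members in those bins were at 0.60, 0.60 and 0.51.

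For Ncr1-cre+polyIC over Ncr1-cre+Saline in choroid plexus, 2 nuclear members were past 25% lower and 3 higher, with 11.0 and 30.7% of all genes past that threshold in those directions, and the median was −0.13 against 0.16 over all genes. Sdhd was highest at 1.77-fold (1.54 to 2.05), followed by Ndufs1 and Sdhb. Ndufa2, a matrix-arm accessory subunit of complex I at 712, 548 and 854 CPM, was lowest at 1.30-fold lower (1.22 to 1.38). Mitochondrial members had a median of 0.32, with 6 of 12 past 25% higher and mt-Nd3 lower. That median was 0.95 with no mitochondrial limit, 0.58 with Malat1 required and −0.13 with the limit at 5%, so its sign rests on where the limit is placed.

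In monocytes, 23 of the 33 nuclear members were called higher than in microglia and none lower, with 22.1% of all genes called higher and 21.0% lower. The median was 0.46 against −0.09 over all genes. By complex, 10 of 11 members of complex IV, 7 of 10 of complex I, both of complex II, 3 of 6 of complex V and 1 of 4 of complex III were called. Ndufa6, an accessory subunit of complex I, was the highest at 1.02 (SE 0.17, edgeR adjusted p = 0.000185), with 294, 292 and 301 CPM in monocytes against 176, 174 and 168 in microglia. Its values did not overlap between the classes. Atp5h followed at 0.93, with 615, 671 and 680.0 against 413, 376 and 441, and Ndufb3, of the membrane arm of complex I, at 0.87. The 3 lowest were Ndufv3 at −0.08, Ndufs1 at −0.05 and Uqcr10 at 0.16, none of them called.

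The count of calls in monocytes depended on the libraries and the model. It was 12 nuclear members without the saline library, 6 without Ncr1-cre+polyIC and 22 without Gzmb-cko+polyIC, 9 without the library as a block, 7 with library totals in place of TMM scaling (with 1 lower) and 25 with DESeq2. In the same order 16.7, 16.3, 17.3, 18.75, 15.3 and 19.9% of all genes were called higher. The count without Ncr1-cre+polyIC, 6 of 33, was thus near the share over all genes. The median stayed between 0.21 and 0.56 in the settings run. Neutrophil markers moved with this class: their summed level in monocytes was 15704, 7901 and 5599 CPM, and their part in the result was not tested. Among mitochondrial members only mt-Nd2, a core subunit of complex I, was called, at −0.44 (SE 0.17, edgeR adjusted p = 0.0485), with 1273, 1499 and 1635 against 1922, 2870.2 and 2423 CPM. The count of mitochondrial calls was 7 lower with library totals, where 32.6% of all genes were called lower. It was 4 lower and 1 higher without Gzmb-cko+polyIC, where 14.3% of all genes were called lower and 17.3% higher. It was 0 with DESeq2, without the block, without either of the other libraries, with no mitochondrial limit, with cells of 2 or more gates kept and with Malat1 required, and 2 or 3, all lower, in the remaining 3 settings.

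Of the other subunits 25 of 48 were called higher in monocytes and 2 lower. Cox6b2 was again the highest, at 1.56, with 32.8, 20.9 and 16.1 against 15.2, 7.96 and 5.96 CPM, and Uqcrfs1, the Rieske iron-sulfur protein of complex III, was at 0.79. The 2 that fell were Atpif1, the inhibitor of the ATP synthase, at −0.56 (SE 0.17, edgeR adjusted p = 0.0128), and Ndufa12, an accessory subunit of complex I, at −0.42. Prdx5, a peroxiredoxin, was the highest of the redox enzymes at 2.38, and 5 of 10 of these were called higher and none lower. Cytosolic ribosomal proteins were called higher for 57 of 85 and lower for none, with a median of 0.42, close to that of the members.

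Border macrophages did not differ from microglia in any member by this test: 0 of 46 were called by edgeR, the smallest adjusted p being 0.627, and DESeq2 also called 0, while 4.07% of all genes were called higher and 1.55% lower. The log2 differences ran from −0.07 (Cox7b, then Sdhb and Ndufa6) to 0.19 (Ndufb8, of the membrane arm of complex I, after Cox7a2 and Ndufa2) for nuclear members and up to 0.20 for mt-Co1, the catalytic subunit of complex IV. Standard errors were about as large (0.15 for Ndufb8, 0.19 for mt-Co1), so small differences cannot be told from none. These errors rest on the spread shared by all classes of the fit. The summed nuclear share given above was higher in border macrophages than in microglia in each library. Among the other subunits, Cox7a1, the isoform known from heart and muscle, was called at 0.90 (SE 0.23, edgeR adjusted p = 0.0256), at 5.72, 4.65 and 5.88 against 3.68, 2.51 and 2.53 CPM.

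In neurons 3 nuclear members were called higher and 1 lower, with 30.8% of all genes called higher and 28.6% lower. Cox7a2, an accessory subunit of complex IV, was the highest at 0.81 (SE 0.16, edgeR adjusted p = 0.000514), with 603, 576 and 553 CPM against 327, 231 and 281. Ndufb9 of complex I followed at 0.53 and Ndufa4, now assigned to complex IV, at 0.36. Cox7c, of complex IV, was at 0.38 (SE 0.16) and was not called, and neither were the next lowest, Ndufv3 at −0.34 and Atp5e, the epsilon subunit of complex V, at −0.31. Sdhd fell by 0.72 (SE 0.15, edgeR adjusted p = 0.000627), at 56.8, 70.5 and 74.7 against 66.5, 105 and 107, so by CPM the classes overlapped. mt-Atp8 was also lower, at −0.51. The number of members called ranged from 2 to 18 over the settings run. Of all genes, 19.7 to 38.5% were called higher and 20.9 to 32.2% lower in those settings. Without the Ncr1-cre+polyIC library the nuclear median was −0.047 in place of 0.15. Of the mitochondrial members 10 were called lower without Gzmb-cko+polyIC and 0 without either of the other libraries. In the first of these settings 26.8% of all genes were called lower. Markers of other cell types differed between the libraries in this class. Neutrophil markers summed to 10275, 676 and 2851 CPM (6, 3 and 3 of 6 at 20 CPM or more). Microglial markers summed to 3029, 823 and 2363 and radial glia markers to 783, 515 and 448. Cells positive for 2 or more of 12 cell cycle genes made up 67.3, 46.5 and 33.9% of the class. Of these 12 genes 7 were called higher than in microglia and none lower, with a median of 0.88. The class is thus named by its gate and is not made of resting neurons alone. The part of these markers and of cycling cells in the result was not tested. Cytosolic ribosomal proteins, by contrast, were called lower for 67 of 85 and higher for 1, with a median of −0.50.

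Within microglia, cells with UMIs of 2 or more of 12 cell cycle genes (51.8, 44.3 and 51.3% of microglia) were compared with the rest, a contrast added after the data were seen. All 12 cycle genes are higher by construction. Of the nuclear members 19 were called higher and 3 lower, with 20.9% of the 12685 genes tested called higher and 20.4% lower, but the median was only 0.10. Uqcr10 was the highest at 0.34 (SE 0.03), with 325, 221 and 275 CPM in cycling and 258, 167 and 209 in other cells. Cox7a2 followed at 0.30 and Cox5a at 0.24. Against this, Ndufa6 fell by 0.30 (SE 0.03, edgeR adjusted p = 3.29e-07), with 162, 159 and 155 against 196, 191 and 186, no overlap between the 2 sets of cells. Uqcrh, the hinge protein of complex III, was at −0.19 and Cox4i1, a regulatory subunit of complex IV, at −0.08. Mitochondrial members were called lower for 4 of 13 and higher for none, none beyond −0.09 (mt-Nd4l and mt-Cytb). Other subunits were higher for 27 of 49 and lower for 2, mitochondrial ribosomal proteins for 47 of 76 and lower for 1, and cytosolic ribosomal proteins lower for 67 of 84 and higher for 4. Cycling cells held more UMIs, with means of 6681, 7074 and 7728 against 4848, 4771 and 5511, and the part of depth in these small differences was not tested.

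In microglia most nuclear members were lower in Ncr1-cre+polyIC than in Ncr1-cre+Saline and most mitochondrial members higher. Of the nuclear members 30 of 33 were lower, 15 past 25%, and 1 was past that threshold higher. Of all 5677 genes at 20 CPM or more, 4.56% were past 25% lower and 23.6% higher. The median log2 ratio of the nuclear members was −0.26 against 0.17 over all genes. TMM scaling moved the median of all genes to −0.00, that of the nuclear members to −0.43 and their count past 25% lower to 22. By complex the medians were −0.22 for I, 0.42 for II, −0.35 for III, −0.42 for IV and −0.29 for V. The median of complex II went the other way, but it is over 2 members only and rests mainly on Sdhd.

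In complex I, Ndufa2 was lowest, at 352, 233 and 290.4 CPM, 1.51-fold lower with polyIC (1.46 to 1.56). The highest was Ndufs1, at 37.6, 43.9 and 40.3. In complex III, Uqcr10 was lowest, at 298, 196 and 248, 1.52-fold lower (1.47 to 1.57), and Uqcrb, another accessory subunit, at 277, 252 and 279, was the nearest to no change at −0.14. In complex IV the range ran from Cox6c, an accessory subunit, at 576, 397 and 462, or −0.54, to Cox5a at −0.02. In complex V it ran from Atp5l at 463, 333 and 394, or −0.48, to Atp5b, the catalytic beta subunit, at −0.01. In each of these pairs the saline library was above Ncr1-cre+polyIC and the Gzmb-cko+polyIC library lay above Ncr1-cre+polyIC, except for Ndufs1, whose highest value was with Ncr1-cre+polyIC.

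Both members of complex II were higher with polyIC. Sdhd, the membrane anchor, stood at 66.5, 105 and 107 CPM, 1.57-fold higher in Ncr1-cre+polyIC (1.48 to 1.67), and both polyIC libraries were above the saline one. Sdhb, the iron-sulfur subunit, stood at 103, 118 and 131, a smaller rise than that of Sdhd. The remaining subunits of this complex were nearly level, with log2 ratios of 0.02 for Sdha, which oxidizes succinate, and −0.02 for Sdhc, the other anchor. Sdhd was also higher with polyIC in border macrophages (0.74), monocytes (0.85) and choroid plexus (0.82), as log2 ratios to the saline library. These ratios come from the same pair of libraries and are not independent of each other in that respect.

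**Figure D4:**
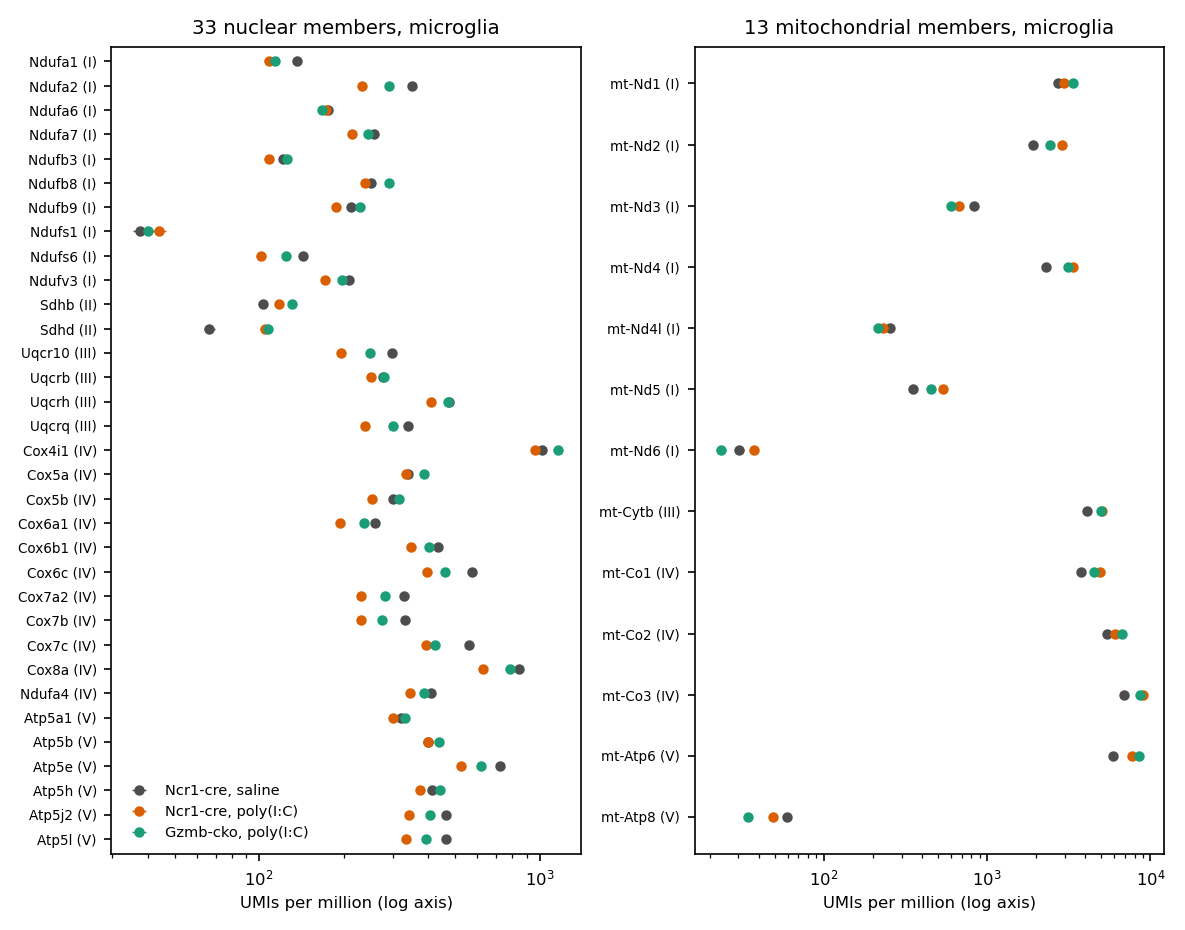
Level in microglia (CPM, log axis) of each nuclear (left) and mitochondrial (right) member, complex in brackets on the vertical axis, 1 point per library with its counting interval (95%). Ncr1-cre+polyIC lies left of saline for 30 of the 33 nuclear members, and right of it for 10 of the 13 mitochondrial ones. The axis compares libraries and not genes, since values are not divided by length.

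The mitochondrial members of microglia were higher with polyIC for 10 of 13, 6 of them past 25%, with a median of 0.31. In complex I, mt-Nd5 rose the most, from 351 to 537 CPM, with 454 in Gzmb-cko+polyIC, a ratio of 1.53 to saline (1.49 to 1.57). mt-Nd2 stood at 1922, 2870.2 and 2423, mt-Nd4 at 2289, 3352 and 3127 and mt-Nd1 at 2702, 2961 and 3362. Of these core proton-pumping subunits, mt-Nd1 alone was highest in Gzmb-cko+polyIC. mt-Nd6, the member on the other strand, stood at 30.3, 37.3 and 23.5.

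In complex III, mt-Cytb stood at 4076, 5055 and 5003 CPM. In complex IV, mt-Co1 stood at 3762, 4904 and 4523, mt-Co2 at 5453, 6104 and 6674 and mt-Co3 at 6853, 8964 and 8686. mt-Atp6 of complex V stood at 5906, 7687 and 8502. In all 5 of these genes both polyIC libraries were above the saline library. The 3 that were lower with polyIC were the 3 shortest: mt-Nd3 (348 bases) at 835, 669 and 601, mt-Atp8 (204 bases) at 59.8, 48.6 and 34.4 and mt-Nd4l (297 bases) at 254, 229 and 216. In each of these the saline library was the highest and Gzmb-cko+polyIC the lowest.

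The direction of the mitochondrial members depended in part on scaling and on the limit. With TMM scaling 8 of 13 were higher and 5 lower, with a median of 0.14, and with no limit on the mitochondrial share the median was 0.45. The mitochondrial share of microglia was then 3.48, 4.81 and 4.65%, and the limit had removed 22, 372 and 199 microglia. mt-Nd5, mt-Nd2 and mt-Nd4 were the 3 highest of the 13 by log2 ratio, at 0.61, 0.58 and 0.55.

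Gzmb-cko+polyIC over Ncr1-cre+polyIC shares the Ncr1-cre+polyIC library with the comparison above, so that a value of that library which is off would move the 2 ratios in opposite directions. In microglia 31 of 33 nuclear members were higher in Gzmb-cko+polyIC, but only 3 were past 25%, with 2.66% of all genes past that threshold higher and 8.0% lower. The median was 0.22 against −0.02 over all genes. The 3 were Uqcr10 (0.34), Uqcrq (0.33) and Cox8a (0.33), and the lowest was Ndufs1 at −0.13, followed by Ndufa6 at −0.05. Against the saline library, the nuclear median of Gzmb-cko+polyIC was −0.08 and the mitochondrial median 0.30. By these medians, which use CPM without TMM scaling and are not set beside one over all genes, the nuclear levels of the Gzmb-cko+polyIC library were near those of saline. The TMM factors of microglia were 0.943 for saline and 0.999 for Gzmb-cko+polyIC, which lowers the ratios to saline. Nearness to saline relative to other genes is therefore not shown. The mitochondrial levels were near those of Ncr1-cre+polyIC. Single members departed from this: Sdhd was higher than with saline, and Ndufa2 and Cox6c were lower. The totals behind these ratios hold unequal erythroid RNA, at 99476 CPM with saline and 25593 in Gzmb-cko+polyIC.

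Of the mitochondrial members 10 of 13 were lower in Gzmb-cko+polyIC than in Ncr1-cre+polyIC, 2 past 25%, with a median of −0.10. Those 2 were mt-Nd6, at −0.67, and mt-Atp8, at −0.50, both among the least counted members. mt-Nd1, mt-Atp6 and mt-Co2 were the 3 that were higher. The number of members of both genomes past 25% was 5 here and ranged from 2 to 17 over the settings run, with 17 under TMM scaling and 2 without cycling cells. The share of all genes past 25% in those settings is not given. The median of the 13 was −0.01 with TMM scaling.

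Transcript length moved with the ratios of microglia between libraries. For Ncr1-cre+polyIC over Ncr1-cre+Saline, other genes without ribosomal protein genes had medians of −0.50 under 500 bases, −0.18 from 500 to 700, 0.00 from 700 to 1000, 0.15 from 1000 to 2000 and 0.19 above. Nuclear members in the same bins (3, 16, 6, 6 and 2 genes) were at −0.46, −0.29, −0.21, −0.15 and 0.07. From 500 to 2000 bases the medians of the members were thus below those of other genes of their length, and under 500 bases the median was not. Cytosolic ribosomal protein genes were at −0.72, −0.36, −0.10, −0.15 and −0.21 in the same bins, so above 1000 bases they did not climb with length, and from 1000 to 2000 bases their median was the same as that of the members. Uqcrq, at 1521 bases and −0.50, and Cox7b, at 1001 bases and −0.52, were low for their length, while Sdhd, at 1231 bases and 0.65, was high for it. The reason for the relation with length was not tested.

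**Figure D5:**
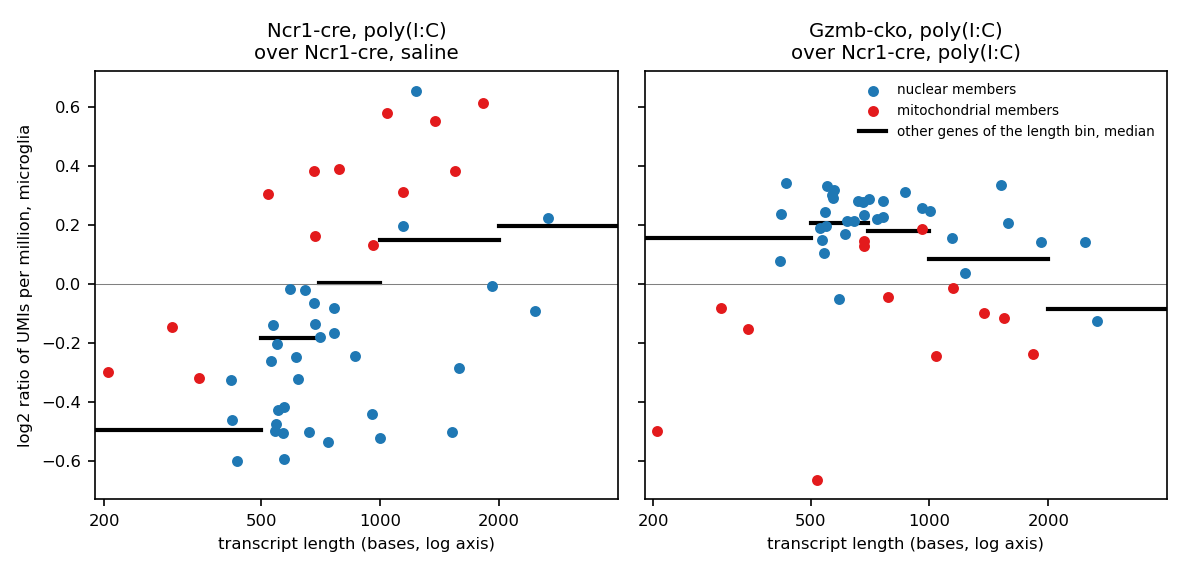
Log2 ratio of CPM in microglia (vertical axis) against transcript length (bases, log axis) for nuclear (blue) and mitochondrial (red) members, for Ncr1-cre+polyIC over Ncr1-cre+Saline (left) and Gzmb-cko+polyIC over Ncr1-cre+polyIC (right). Black bars are medians of other genes in a length bin, ribosomal protein genes left out. On the left the bars climb from −0.50 to 0.19 with length, and on the right they fall from 0.21 (500 to 700 bases) to −0.09 (above 2000).

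For Gzmb-cko+polyIC over Ncr1-cre+polyIC the medians of other genes were 0.15, 0.21, 0.18, 0.08 and −0.09 in the same order, and those of nuclear members 0.24, 0.22, 0.27, 0.18 and 0.01. The medians of the members were thus at or slightly above those of genes of their length in every bin. All 45 other subunits past the floor were higher in this comparison, with a median of 0.18, and 81 of 82 cytosolic ribosomal protein genes, with a median of 0.23.

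Other lists of the pathway were mixed in microglia with polyIC, in a comparison in which the median over all genes was 0.17 and 23.6% of genes were past 25% higher. The other subunits were lower for 24 of 45 and higher for 21, with a median of −0.02, from Atp5k, subunit e of the ATP synthase, at −1.06 to Uqcrfs1 at 0.28. The tricarboxylic acid cycle was higher for 12 of 17 (median 0.12), close to that of all genes, from Ogdh, of the oxoglutarate dehydrogenase, at −0.30 to Dld, a subunit that it shares with pyruvate dehydrogenase, at 0.38. Glycolysis was higher for 10 of 13 past the floor (median 0.16), again close to it, from Hk2 at −0.67 to Pfkl, a phosphofructokinase, at 0.48. Factors that express mitochondrial DNA were higher for 6 of 8, from Slirp, an RNA-binding protein of mitochondria, at −0.85 to its partner Lrpprc at 0.49. All 11 immediate early genes past the floor, which respond fast to stimulation and to tissue handling, were higher (median 0.67), and their part in the members' ratios was not tested. Erythroid genes in microglia summed to 99476, 57492 and 25593 CPM, which takes the most of the total in the saline library. Neutrophil markers in microglia summed to 4505, 2618 and 1460 CPM, with 6 of 6 at 20 CPM or more in each library, and choroid plexus markers to 2853, 1828 and 863, with 1 of 9. All 3 lists were highest in saline and lowest in Gzmb-cko+polyIC, and the part of the neutrophil and choroid plexus RNA in the members' ratios was not tested. With mitochondrial, ribosomal protein and hemoglobin genes left out of the totals, the nuclear median was −0.39 and 20 nuclear members were past 25% lower. The share of all genes past 25% with those totals is not given.

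Border macrophages gave ratios like those of microglia. For Ncr1-cre+polyIC over Ncr1-cre+Saline, 29 of 33 nuclear members were lower, 17 past 25% and 2 past that threshold higher, with 5.74 and 28.3% of all genes past that threshold in those directions and medians of −0.34 against 0.16. Mitochondrial members were higher for 10 of 13, 8 past 25%, with a median of 0.41. For Gzmb-cko+polyIC over Ncr1-cre+polyIC, 32 of 33 nuclear members were higher, 3 past 25%, with 5.78% of all genes past it higher and 12.6% lower, and a median of 0.24. The mitochondrial median was −0.16. Uqcr10 stood at 327, 224 and 270.1 CPM and mt-Nd5 at 375, 592 and 494, the same order of libraries as in microglia.

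Monocytes and neurons showed smaller nuclear differences. In monocytes 19 of 33 nuclear members were lower with polyIC and 14 higher, 4 and 3 of them past 25%, with 7.48% of all genes past it lower and 33.4% higher, and the median was −0.04. That sign turned when gates were set at 2 UMIs (0.012). The mitochondrial median was 0.24, with mt-Nd3 lowest at −0.56. In neurons 6 nuclear members were past 25% lower and 4 higher, with 20.1 and 37.8% of all genes, and medians of −0.07 for nuclear and 0.34 for mitochondrial members. In neurons the mitochondrial limit had removed 0, 17 and 23 cells, the last 16.7% of the class in that library, and without it the mitochondrial share was 3.17, 4.98 and 6.28%. mt-Atp6 in neurons stood at 5282, 7985 and 11046 CPM within the limit, lowest with saline and highest in Gzmb-cko+polyIC.

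Among microglia, 4928, 3666 and 4738 cells reached 0.1% Malat1. The nuclear share of the remaining cells was 1.04, 1.35 and 1.57% against 1.17, 0.920 and 1.09% in those that reached it, so by pooled UMIs the remaining cells were lower in saline and higher in both polyIC libraries. By the median over cells they were higher in all 3 libraries, at 1.36, 1.49 and 1.69% against 1.16, 0.878 and 1.02%, so the order in saline depends on how cells are weighted. Removing them left the order of the libraries as it was, with the lowest nuclear share in Ncr1-cre+polyIC. These remaining cells also differed in depth between libraries. Their median UMIs were 5010, 2012 and 3371, against 4728, 5484 and 5951 in those that reached 0.1%, and the saline library held no barcode under 3133.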

How the data were processed

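UMI counts per gene and barcode were deposited as filtered 10x matrices, 1 per library, made with Cell Ranger 5.0.0 per the file headers. Cell Ranger is listed as version 3.0.1, beside STAR and mm10, per the submitters' processing notes, so the version used is not settled. Members and lists were chosen with earlier results of these data known. Gene lengths and positions come from GENCODE vM21 (GRCm38), which matched 27722 of the 27998 gene IDs.

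Counts were summed per class and library. For library comparisons, with 1 library a group, sums were scaled to CPM, and ratios are given for genes with a mean of 20 CPM or more. Intervals (95%, exact) cover counting error only. Classes were compared by edgeR 4.0.16 (R 4.3.3; TMM, quasi-likelihood test, library as a block, Benjamini-Hochberg adjustment). DESeq2 1.42.0 was an alternative. The other steps used Python 3.11.15, numpy 2.4.6, scipy 1.17.1, pandas 2.3.3 and scanpy 1.11.5. Doublets were handled by leaving out cells of 2 or more gates. The gates of microglia and border macrophages differ by Mrc1 and cannot overlap, so doublets of these 2 classes can remain among border macrophages. Scrublet's own threshold marked 0% of barcodes in the saline library, so an alternative removed its highest scores at the expected rate. Those took 15.5, 19.8 and 20.7% of border macrophages and 7.90, 10.1 and 8.98% of microglia. With them removed, no member was called between these 2 classes. The edgeR step was tested on simulated data.

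All 46 members were counted. Named with values were the 13 mitochondrial members, the highest and lowest nuclear member per complex, the 3 highest and 3 lowest in each class contrast, members past 1.5-fold in microglia, and the highest and lowest gene of other lists. Tfam, Nrf1, Gabpa, Sdha, Sdhc, Cox6a2 and the members named for their place in a promoter, a length bin or a second class were chosen after their values were seen.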

Additional observations from a re-analysis of the deposited data

How the results depend on the processing

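Counts of members past 25% between libraries moved by over 1.5 times in these settings. The shares of all genes past 25% in these settings are not given, so the counts do not show whether the members moved more than other genes. For Gzmb-cko+polyIC over Ncr1-cre+polyIC in microglia, 5 became 17 with TMM scaling, 13 with a mitochondrial limit of 5%, 9 with the UMI floor of the saline library, 2 as means over cells, 3 with a floor of 100 CPM and 2 without cycling cells. In border macrophages 5 became 26 (TMM), 19 (5% limit), 8 (means over cells) and 3 (floor of 100 CPM), in monocytes 4 became 2 (5% limit), 1 (floor of 100 CPM) and 1 (without cycling cells), in choroid plexus 38 became 20 (means over cells), and in neurons 10 became 16 (without cycling cells). For Gzmb-cko+polyIC over Ncr1-cre+Saline, 11 became 17 in microglia (totals without mitochondrial, ribosomal protein and hemoglobin genes), 11 became 7 (5% limit) and 20 (without cycling cells) in border macrophages, 36 became 14 (means over cells), 22 (without cycling cells) and 20 (Malat1 required) in choroid plexus, and 17 became 26 (without cycling cells) in neurons. For Ncr1-cre+polyIC over Ncr1-cre+Saline in choroid plexus, 12 became 21 with no mitochondrial limit and 29 with Malat1 required.

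Against microglia, the 24 members called in monocytes became 15 without scaling factors and 6 to 27 when a library was left out (6 without Ncr1-cre+polyIC). The 5 called in neurons became 10 (DESeq2), 18 (no scaling), 11 (no low-count filter), 13 (Scrublet), 14 (Malat1 required) and 2 to 16 when a library was left out. Without the library as a replicate block, 9 members were called in monocytes and 3 in neurons. No paired analysis was possible because each group has 1 library, for the comparisons between libraries.

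Some medians changed sign. In monocytes with polyIC the nuclear median was 0.0117 with gates at 2 UMIs (−0.036 as reported), and 0.0008 for Gzmb-cko+polyIC over saline (−0.059). For Gzmb-cko+polyIC over Ncr1-cre+polyIC in monocytes it was −0.0117 with Scrublet (0.043), and the mitochondrial median −0.0249 with the 5% limit (0.12). In neurons these were 0.0063 (totals without 3 gene groups) and 0.0020 (cells of 2 or more gates kept) against −0.061, and −0.1548 (5% limit) against 0.25. The mitochondrial median in choroid plexus with polyIC was −0.1256 with the 5% limit (0.32). Against microglia it was 0.2094 (no limit) and 0.3095 (Malat1 required) in choroid plexus (−0.15), and 0.0209 (no scaling) in neurons (−0.24). The nuclear median in neurons was −0.0144 (no filter) and −0.0467 to 0.1261 when a library was left out (0.15). The cause was not tested. Malat1, Scrublet scores and the cycling contrast were chosen after seeing the data.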
